A study of Homo sapiens with 6 samples.

Results

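The genes of sterol and fatty acid synthesis were followed in Daoy, a permanent cell line started from a human medulloblastoma, during exposure to thapsigargin. The list held 34 genes in 5 groups, which were the mevalonate arm, the squalene to cholesterol arm, the control of SREBP, sterol transport and the fatty acid arm. A gene was read only from probe sets that the platform annotation gives to its symbol alone, and 31 of the 34 had one. FDFT1, CYP51A1 and FADS1 had no probe set of their own in that annotation and were not read. All 31 were among the 12839 genes tested, and they were represented by 70 probe sets.

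Cells make cholesterol from acetyl-CoA through mevalonate, isoprenoid units, squalene and lanosterol, and they make fatty acids from the same acetyl-CoA through malonyl-CoA. Genes of both pathways are targets of the SREBP transcription factors, which are made as membrane proteins of the endoplasmic reticulum (ER). When ER sterols are low, SCAP escorts SREBP to the Golgi apparatus for cleavage, and when sterols are high the INSIG proteins hold both back in the ER. Thapsigargin inhibits the calcium pump of the ER and brings about the unfolded protein response (UPR), the stress response of that same compartment.

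Cells were left untreated or were treated with 1 µM thapsigargin (Tg) for 3 h or for 8 h, and each of the 3 groups was measured on 2 expression arrays. The study describes independent experiments and its labels number the arrays of each group as replicate 1 and replicate 2. In a fit of the group alone, a p-value reflects how far the arrays of a group spread. Where the replicate number is added to the fit, it reflects how far the differences between same-numbered arrays spread. The line comes from 1 tumor, and no vehicle-treated group was analysed here. The values are MAS5 signals on a linear scale, and a log2 fold change is the difference between the group means of log2 signal.

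As a check of the labels, HSPA5, the ER chaperone BiP, had signals of 16614.5 and 18933.2 on the untreated arrays, 73709.4 and 41566.7 at 3 h, and 75398.1 and 44209.5 at 8 h. DDIT3, the stress transcription factor CHOP, had signals of 405.4 and 1654.4 without treatment, 19271.4 and 15024.5 at 3 h, and 20008.8 and 15123.0 at 8 h. All treated arrays were above both untreated arrays for these genes. Of 10 neural progenitor and medulloblastoma markers, 8 reached a signal of 100 on 2 or more arrays, ATOH1 did not, and NEUROD1 had no probe set of its own. The same level was reached by 1 of 5 hepatocyte markers, 2 of 5 adipocyte markers, 1 of the 4 immune markers that had a probe set of their own and 3 of 5 endothelial markers, and none of these other markers exceeded 475.7 on any array. Of the neural progenitor and medulloblastoma markers that reached 100, OTX2, GLI1 and NES were as dim, with highest signals of 146.2, 187.4 and 358.2. In such bulk RNA, fewer cells with a transcript and less of it per cell cannot be told apart.

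Some sterol synthesis genes were called higher after thapsigargin, but not in the fit that used the group alone. The fatty acid genes among the members were not called in any fit. Each gene was tested with limma across all 6 arrays, once with the group alone and once with the replicate number added as a block, and called at a Benjamini-Hochberg adjusted p under 0.05. Each ± below is the standard error (SE) of the fit without the block, also where a blocked adjusted p stands beside it. With the block the SE was smaller for the called members, for example 0.16 for MSMO1 and 0.12 for SQLE. Without the block, 0 of the 31 members were called at 3 h, where 0.0701% of all genes tested were called higher and 0.00% lower. At an unadjusted p under 0.05, 5 members were higher and 0 lower at 3 h, against 3.26% and 1.24% of all genes. At 8 h, 1 member was called higher and 0 lower without the block, against 0.646% and 0.210% of all genes. That member was STARD4. Without the block, 0 of the 16 tested genes of the mevalonate and squalene to cholesterol arms were called at either time. With the block, 5 members were called higher and 0 lower at 3 h, against 1.17% and 0.0779% of all genes. At 8 h, 9 members were called higher and 0 lower with the block, against 4.76% and 3.79% of all genes. Of the response genes, HSPA5 was not called without the block (adjusted p 0.44 at 3 h and 0.12 at 8 h). DDIT3 was called without it only at 8 h (adjusted p 0.0758 and 0.0211), and both were called with it at both times. A member not called without the block may therefore still differ. A local pooled error test, the kind of test that the methods name, called 1 member higher at 3 h and 2 at 8 h, against 0.319% and 1.14% of all genes. The calls of both limma fits rest on an intensity trend of the spread, and without that trend no member was called at either time, with or without the block. The share of all genes called without the trend is not given here, so this absence of calls cannot be set against it.

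The members called with the block were HMGCS1, IDI1, MSMO1, INSIG1 and STARD4 at both times, and SQLE, NSDHL, HSD17B7 and ABCA1 at 8 h only. With the block, leaving out untreated replicate 1, Tg 3 h replicate 1 or Tg 3 h replicate 2 left 3, 2 and 1 of the 5 calls at 3 h, and leaving out either untreated array left 5 of the 9 calls at 8 h. Whether both treated arrays lay above both untreated arrays is a coarser reading, and it held for 7 members at 3 h and for 7 at 8 h. Such a separation upward was seen for 14.0% of all genes at 3 h and 15.3% at 8 h. Both treated arrays lay below both untreated arrays for 2 members at 3 h and 3 at 8 h, against 16.5% and 26.7% of all genes.

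**Figure D1:**
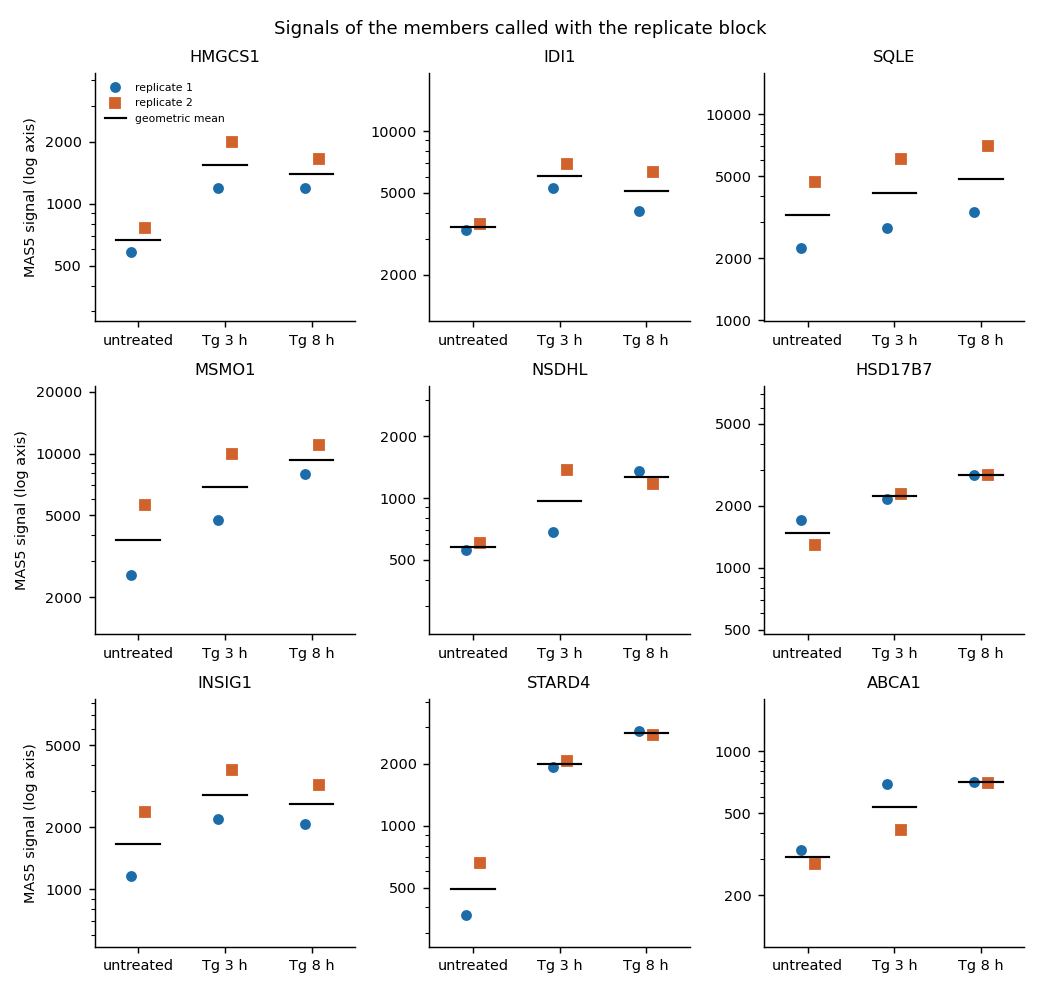
MAS5 signal (log axis) of the 9 members called with the replicate block, on the untreated, Tg 3 h and Tg 8 h arrays. Circles are replicate 1, squares replicate 2 and bars geometric means of both. STARD4 rose from 368.5 and 661.2 to 2883.6 and 2744.4 at 8 h, whereas the SQLE and INSIG1 signals of treated and untreated arrays overlap unless arrays of the same number are compared.

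Among the genes of sterol transport, STARD4 showed the largest change of all 31 members at both times. STARD4 encodes a soluble protein that carries cholesterol between membranes. Its signal was 368.5 and 661.2 on the untreated arrays, 1919.5 and 2057.2 at 3 h, and 2883.6 and 2744.4 at 8 h. Every treated array was above both untreated arrays, and both 8 h arrays were above both 3 h arrays. At 3 h its log2 fold change was 2.01 ± 0.29 (SE), with an adjusted p of 0.1 without the block and 0.00203 with it. At 8 h it was 2.51 ± 0.29, a 5.7-fold difference, with an adjusted p of 0.0151 without the block and 0.000225 with it. Without Tg 8 h replicate 1 the adjusted p at 8 h in the fit without the block was 0.127, and without Tg 8 h replicate 2 it was 0.106, with log2 fold changes of 2.48 and 2.55. At 3 h, leaving out untreated replicate 2 gave an adjusted p of 0.0185 in that fit.

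ABCA1, the pump that passes cholesterol to apolipoproteins outside the cell and a target of the LXR receptors, had signals of 331.7 and 283.3 on the untreated arrays, 695.7 and 414.1 at 3 h, and 712.9 and 701.5 at 8 h. All treated arrays were above both untreated ones, with the 8 h arrays close together. Its log2 fold change reached 0.81 ± 0.30 at 3 h (blocked fit, adjusted p 0.205) and 1.21 ± 0.30 at 8 h (adjusted p 0.179, or 0.0142 in the blocked fit). Another ABCA1 probe set of like brightness, 203504_s_at, was not called. Its signals were 376.5 and 321.1 untreated, 361.6 and 309.1 at 3 h, and 710.4 and 408.6 at 8 h, with log2 fold changes of -0.06 and 0.63 (blocked fit, adjusted p 0.951 and 0.168). NPC1 and NPC2, which together release cholesterol from lysosomes, were not called. NPC2 had the lowest log2 fold change of this group at 8 h, -0.28 ± 0.22, with signals of 5716.0 and 6248.4 untreated, 4672.5 and 6279.2 at 3 h, and 4558.4 and 5302.1 at 8 h.

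In the mevalonate arm, HMGCS1 and IDI1 were called with the block at both times, and the other 5 genes were not called. HMGCS1 makes hydroxymethylglutaryl-CoA, the compound from which mevalonate is formed. Its signal was 582.6 and 764.2 on the untreated arrays, 1198.6 and 1990.1 at 3 h, and 1189.5 and 1648.3 at 8 h. All 4 treated arrays were above both untreated arrays, and the ranges at 3 h and 8 h overlapped. Log2 fold changes were 1.21 ± 0.31 at 3 h and 1.07 ± 0.31 at 8 h. The adjusted p was 0.557 and 0.249 without the block, and 0.007 and 0.00417 with it. A second HMGCS1 probe set, 205822_s_at, was dimmer, and differed by 1.34 on the log2 scale at 3 h (blocked fit, adjusted p 0.0312) and by 0.82 at 8 h (blocked fit, adjusted p 0.0748).

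IDI1 interconverts the isoprenoid units that are joined to build longer chains. Its brightest probe set, 208881_x_at, had signals of 3286.0 and 3539.5 untreated, 5259.9 and 6930.7 at 3 h, and 4084.2 and 6336.5 at 8 h. The treated arrays were all above the untreated arrays. For this probe set the log2 fold change was 0.82 ± 0.26 at 3 h and 0.58 ± 0.26 at 8 h, with adjusted p of 0.0289 and 0.0437 with the block and 0.983 and 0.529 without it. The 4 probe sets of IDI1 did not move together. Probe set 204615_x_at was also higher, with log2 fold changes of 0.93 and 0.76 and adjusted p of 0.00726 and 0.00626 with the block, whereas 233014_at had signals of 304.1 and 292.1 untreated and 154.1 and 101.8 at 8 h and did not pass the test (log2 fold change -1.25, adjusted p 0.0596 with the block). The name ending x_at marks probe sets whose probes can also match other transcripts, and 233014_at is the only IDI1 probe set without it. Which of them follows the IDI1 transcript was not tested.

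**Figure D2:**
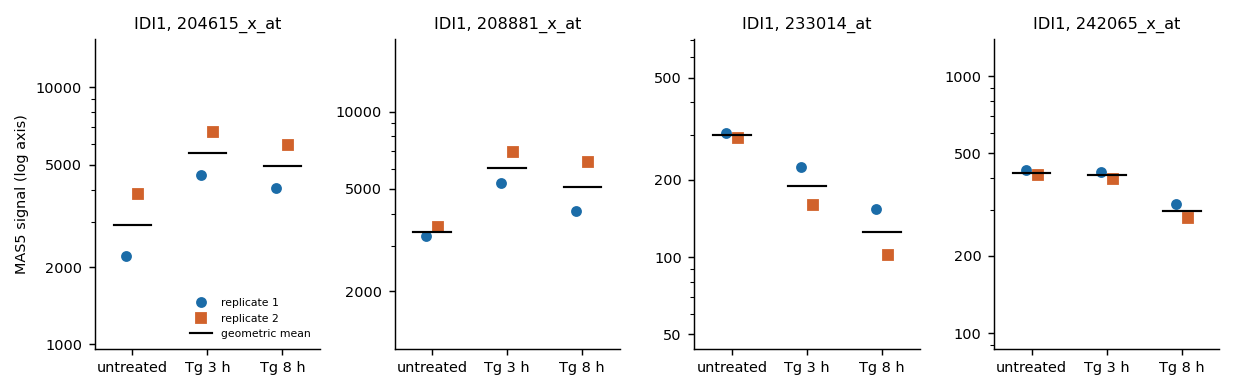
MAS5 signal (log axis) of the 4 IDI1 probe sets on the untreated, Tg 3 h and Tg 8 h arrays, with circles for replicate 1, squares for replicate 2 and bars for geometric means. The 2 brighter probe sets were higher after treatment, 233014_at was lower at 8 h on both arrays, and the log2 fold change of 242065_x_at was -0.03 at 3 h and -0.50 at 8 h.

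The highest log2 fold change of the mevalonate arm at 8 h belonged to MVD, which decarboxylates mevalonate diphosphate, and it rested on 1 dim array. The MVD signal was 13.5 and 117.3 on the untreated arrays, 38.3 and 147.8 at 3 h, and 153.0 and 113.3 at 8 h. At 8 h the log2 difference was 3.50 between the replicate 1 arrays and -0.05 between the replicate 2 arrays. Its mean, 1.73 ± 1.17, was not called (adjusted p 0.703 without the block and 0.346 with it). PMVK, which acts just before MVD, had the lowest value of the arm at 8 h, -0.22 ± 0.25, with signals of 1403.5 and 982.9 untreated, 1073.3 and 960.0 at 3 h, and 1125.4 and 897.5 at 8 h. ACAT2, MVK and FDPS, which condense acetyl-CoA, phosphorylate mevalonate and form farnesyl diphosphate, differed at 8 h by -0.10, 0.07 and 0.00 on the log2 scale.

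In the squalene to cholesterol arm, 4 of 9 genes were called with the block at 8 h and 1 at 3 h. SQLE, which oxidizes squalene and is a rate-limiting step of the pathway, had signals of 2238.7 and 4710.5 untreated, 2819.8 and 6043.1 at 3 h, and 3368.8 and 7011.2 at 8 h. The groups overlapped, and the rise was seen only between arrays of the same number, where the log2 fold change at 8 h was 0.59 on replicate 1 and 0.57 on replicate 2. Its mean was 0.35 ± 0.50 at 3 h and 0.58 ± 0.50 at 8 h, with adjusted p of 0.297 and 0.0178 with the block and 0.799 at 8 h without it. A second SQLE probe set, 213577_at, had signals of 1114.6 and 1021.8 untreated, 2008.1 and 1957.0 at 3 h, and 1667.9 and 2158.7 at 8 h, and it was called with the block at both times (log2 fold changes 0.89 and 0.83, adjusted p 0.0372 and 0.0157). The dimmer 213562_s_at and 1557352_at were not called, with log2 fold changes of 0.06 and -0.65 at 3 h and of 0.36 and -0.05 at 8 h. With the mean of all its probe sets, SQLE was not called at 8 h in the blocked fit.

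The enzymes MSMO1, NSDHL and HSD17B7 act one after another to remove the paired methyl groups from the ring of lanosterol-derived sterols, and all of them were called at 8 h with the block. MSMO1, the methylsterol monooxygenase, had signals of 2569.5 and 5647.1 untreated, 4745.8 and 9975.5 at 3 h, and 7924.6 and 11000.2 at 8 h. Both 8 h arrays were above both untreated arrays, and at 3 h the groups overlapped. For MSMO1 the log2 fold change was 0.85 ± 0.45 at 3 h (blocked fit, adjusted p 0.0471) and 1.29 ± 0.45 at 8 h (adjusted p 0.365, 0.00164 in the blocked fit and 0.0443 in the local pooled error test).

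NSDHL, the sterol dehydrogenase that follows MSMO1, had signals of 556.6 and 605.5 untreated, 686.9 and 1375.1 at 3 h, and 1354.6 and 1176.3 at 8 h. Every treated array was above both untreated ones, and the 3 h arrays were the farthest apart. Relative to untreated cells it differed by 0.74 ± 0.33 on the log2 scale at 3 h and by 1.12 ± 0.33 at 8 h (adjusted p 0.255, or 0.0326 in the blocked fit). Its second probe set, 215093_at, differed by 1.13 at 8 h, with an adjusted p of 0.0776, or 0.00507 in the blocked fit.

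HSD17B7, the ketoreductase of the same sequence, had signals of 1706.5 and 1283.8 untreated, 2166.0 and 2286.1 at 3 h, and 2818.8 and 2837.5 at 8 h. The 3 groups did not overlap. Log2 fold changes of HSD17B7 were 0.59 ± 0.21 at 3 h (blocked fit, adjusted p 0.162) and 0.93 ± 0.21 at 8 h (adjusted p 0.131, or 0.00696 in the blocked fit). HSD17B7 was read from an x_at probe set, its only one, so that related transcripts may share this signal. ERG28, the scaffold protein of these enzymes, was named after its values were seen and differed by -0.06 ± 0.34 on the log2 scale at 8 h, with signals of 2640.1 and 4142.9 untreated and 2542.1 and 3967.9 at 8 h.

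The other genes of this arm were not called in either limma fit. SC5D, which desaturates the sterol ring, came closest at 8 h, where its log2 fold change was 0.54 ± 0.42 and its adjusted p 0.0513 with the block. EBP, the sterol isomerase, had the lowest value, -0.49 ± 0.22 at 8 h (adjusted p 0.145 with the block). Its signals were 2300.2 and 1845.7 untreated, 1475.1 and 1621.4 at 3 h, and 1301.0 and 1654.1 at 8 h, so that all treated arrays were below both untreated arrays. With the mean of its probe sets EBP was called lower at 8 h in the blocked fit. No EBP probe set was called alone. That mean takes in the dim 231320_at, which fell from 141.8 and 69.8 untreated to 20.4 and 19.0 at 8 h (log2 difference -2.34, blocked adjusted p 0.258). The brighter 213787_s_at and 213789_at moved by only -0.21 and -0.13 over that time (blocked adjusted p 0.45 and 0.759). LSS, TM7SF2 and DHCR7, which close the sterol ring, reduce it after demethylation and carry out a last reduction to cholesterol, differed by -0.26, 0.30 and 0.21 on the log2 scale at 8 h.

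Among the genes that control SREBP, INSIG1 was called higher with the block at both times and the other 4 were not called. INSIG1, which retains the SCAP and SREBP complex in the ER and is itself an SREBP target, had signals of 1163.6 and 2376.6 untreated, 2189.0 and 3789.0 at 3 h, and 2082.3 and 3218.4 at 8 h. Treated and untreated arrays overlapped, and each treated array was above the untreated array of its own number. On the log2 scale INSIG1 differed by 0.79 ± 0.41 at 3 h and 0.64 ± 0.41 at 8 h, with adjusted p of 0.036 and 0.029 with the block and 1.0 and 0.677 without it. Both other INSIG1 probe sets were not called, with log2 fold changes of 0.35 and 0.16 for 201625_s_at (blocked fit, adjusted p 0.525 and 0.717) and of 0.71 and 0.50 for 201627_s_at (0.125 and 0.129). With the mean of all its probe sets, INSIG1 was not called at either time in the blocked fit. INSIG2, which has the same role, had log2 values of -0.11 at 3 h and 0.14 at 8 h. SREBF1 and SREBF2, the genes of the SREBP proteins themselves, had values of 0.00 and 0.20 at 3 h and -0.25 and 0.00 at 8 h. SCAP had the lowest values, -0.49 ± 0.24 at 3 h and -0.42 ± 0.24 at 8 h, with signals of 1437.1 and 1277.7 untreated, 918.8 and 1011.6 at 3 h, and 846.6 and 1212.7 at 8 h. Its treated arrays lay below both untreated arrays, and its adjusted p was 0.355 and 0.245 with the block.

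None of the 6 fatty acid genes was called at either time by limma with or without the block or by the local pooled error test, and none had an unadjusted p under 0.05 without the block. SCD, the desaturase that makes oleate, had the highest log2 fold change of the arm at 8 h, 0.33 ± 0.45 (95% interval -0.71 to 1.37, and -0.03 to 0.69 with the block). Its signals were 4768.3 and 11510.5 untreated, 6159.1 and 11175.9 at 3 h, and 7727.2 and 11219.8 at 8 h, and only the replicate 1 arrays differed. FADS2, a desaturase of polyunsaturated fatty acids, had the lowest, -0.23 ± 0.61 (95% interval -1.63 to 1.18, and -0.63 to 0.18 with the block). Its signals were 740.3 and 1688.8 untreated, 587.6 and 1819.8 at 3 h, and 655.6 and 1393.3 at 8 h.

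The other fatty acid enzymes had log2 fold changes between -0.19 and 0.24. The log2 fold change of ACLY, which splits citrate into acetyl-CoA for both pathways, was 0.01 ± 0.20 at 3 h and -0.05 ± 0.20 at 8 h (95% interval with the block -0.29 to 0.20 at 8 h). ACACA, which makes malonyl-CoA, had values of 0.24 ± 0.31 and 0.11 ± 0.31. FASN, the fatty acid synthase, had values of -0.19 ± 0.39 and -0.17 ± 0.39, with a 95% interval of -0.45 to 0.12 with the block at 8 h. ELOVL6, which lengthens saturated chains, had values of -0.14 ± 0.26 and 0.13 ± 0.26. With the block, the upper bounds of the 95% intervals at 8 h ran over the arm from 0.12 for FASN to 0.69 for SCD, with 0.45 for ACACA and 0.52 for ELOVL6. These bounds hold for the 1 probe set read for each gene. Other tested probe sets of the arm ran at 8 h from -0.74 (ELOVL6, 227491_at) to 0.59 (SCD, 211162_x_at). At 3 h, 214358_at of ACACA was -0.72, and none of these probe sets was called.

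**Figure D3:**
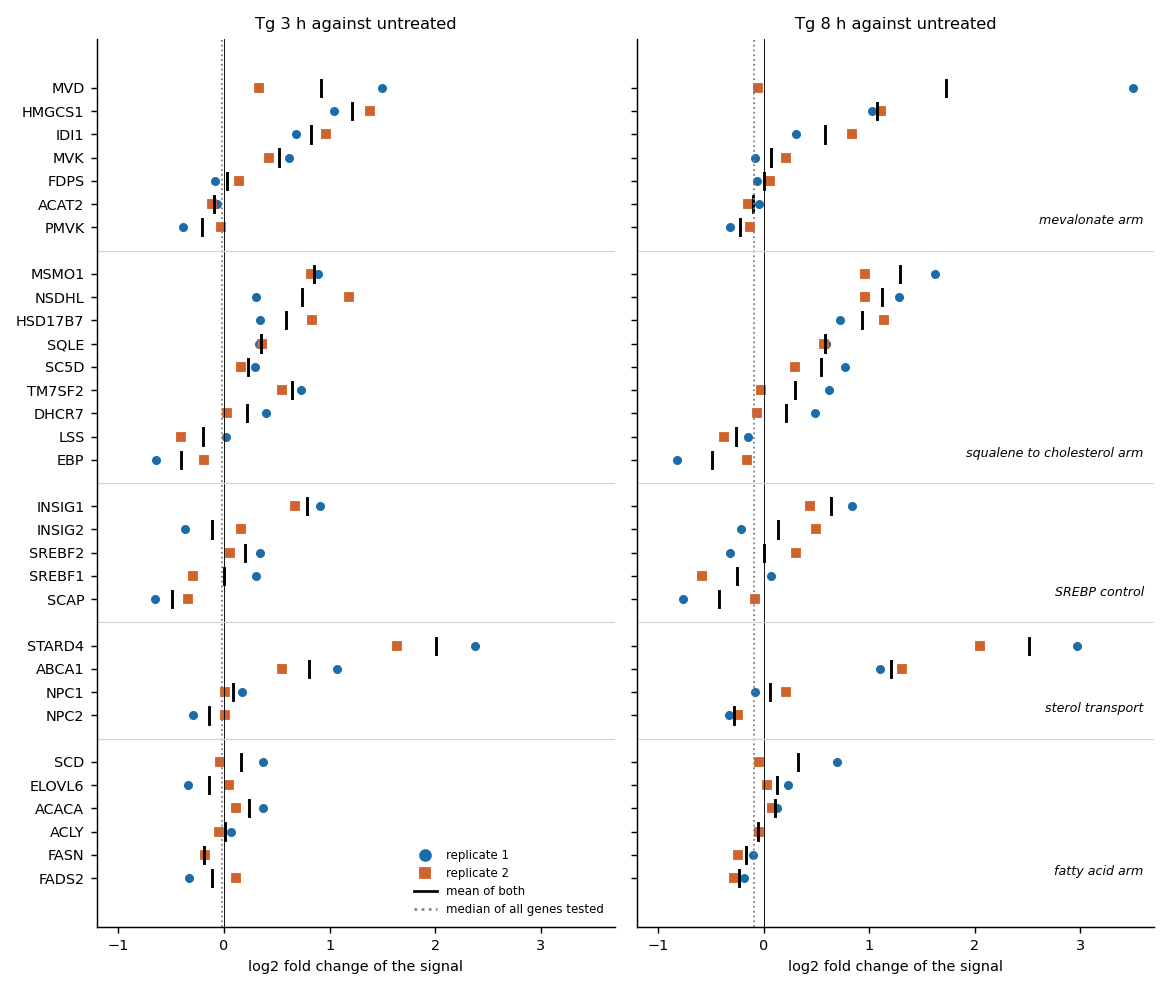
Log2 fold change of the 31 members at 3 h (left) and 8 h (right) against untreated cells, by group of genes. Circles and squares are the differences within replicate 1 and replicate 2, black bars their mean and the dotted line the median of all genes tested (-0.02 and -0.09). The fatty acid genes lie between -0.23 and 0.33 at 8 h, whereas the squalene to cholesterol arm reaches 1.29.

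The median log2 fold change of the 16 sterol synthesis genes, which are the mevalonate and the squalene to cholesterol arms together, was 0.44 at 3 h and 0.42 at 8 h. That of the 6 fatty acid genes was -0.05 and 0.03, and that of all genes tested was -0.02 and -0.09. Of the sterol synthesis genes, 12 of 16 were above 0 at each time, as were 3 of 6 fatty acid genes and 46.9% and 39.9% of all genes tested. On both replicates alike, 11 of the 16 were above 0 at 3 h and 7 at 8 h, against 26.8% and 26.0% of all genes. Within replicate 1 and replicate 2 the sterol median was 0.34 and 0.35 at 3 h, and 0.54 and 0.14 at 8 h. With 1 array left out the replicate numbers are unbalanced, and these genes were mostly higher on replicate 2 (untreated median log2 difference 0.64). When single arrays were left out the sterol median moved down or up, but such medians mix treatment with replicate number. Dropping untreated replicate 1 gave -0.04 at 3 h and 0.02 at 8 h. Dropping Tg 3 h replicate 2 gave -0.09 at 3 h, and dropping Tg 8 h replicate 2 gave 0.07 at 8 h. Leaving out untreated replicate 2 gave 0.79 and 0.77, leaving out Tg 3 h replicate 1 gave 0.79 at 3 h, and leaving out Tg 8 h replicate 1 gave 0.86 at 8 h. The sterol median exceeded the fatty acid median by 0.49 at 3 h, with 0.40 on replicate 1 and 0.34 on replicate 2. At 8 h it exceeded it by 0.39, with 0.50 on replicate 1 and 0.18 on replicate 2. Genes of an arm are not replicates, so these medians describe the lists and carry no test. The arms also differed within themselves, with quartiles of 0.00 and 0.76 for sterol synthesis at 3 h and -0.14 and 0.12 for the fatty acid arm.

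Between 8 h and 3 h, 0 of the 31 members were called by limma without the block, where 0.00% of all genes were called in either direction. With the block 0 members were called too, against 1.53% of all genes higher and 1.72% lower at 8 h. The local pooled error test called 0 members, and the share of all genes under that test is not given here for this comparison. At an unadjusted p under 0.05 without the block, 0 members were higher or lower, against 2.77% and 5.05% of all genes. The log2 differences of the called members ran from -0.25 for IDI1 to 0.50 for STARD4, and they were -0.14 for HMGCS1, -0.15 for INSIG1 and 0.44 for MSMO1. Both comparisons with untreated cells share the untreated arrays, so calls at 3 h and 8 h are not independent of each other.

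The members also differed between the replicate numbers. On the untreated arrays, 25 of the 31 members had a higher signal on replicate 2 than on replicate 1, with a median log2 difference of 0.63, where the median over all genes tested was 0.05. The same difference was 0.72 at 3 h and 0.54 at 8 h. DHCR7 was the clearest case among bright members, with signals of 570.9 and 2467.7 on the untreated arrays, 755.4 and 2522.2 at 3 h, and 799.4 and 2360.1 at 8 h. SREBF1 had signals of 486.5 and 1512.1 untreated, and LSS had 2028.9 and 5386.0. The sterol synthesis and fatty acid genes shared this difference, with untreated medians of 0.64 and 0.74. Because each number holds all 3 groups, the blocked fit sets the treated arrays against the untreated array of the same number.

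**Figure D4:**
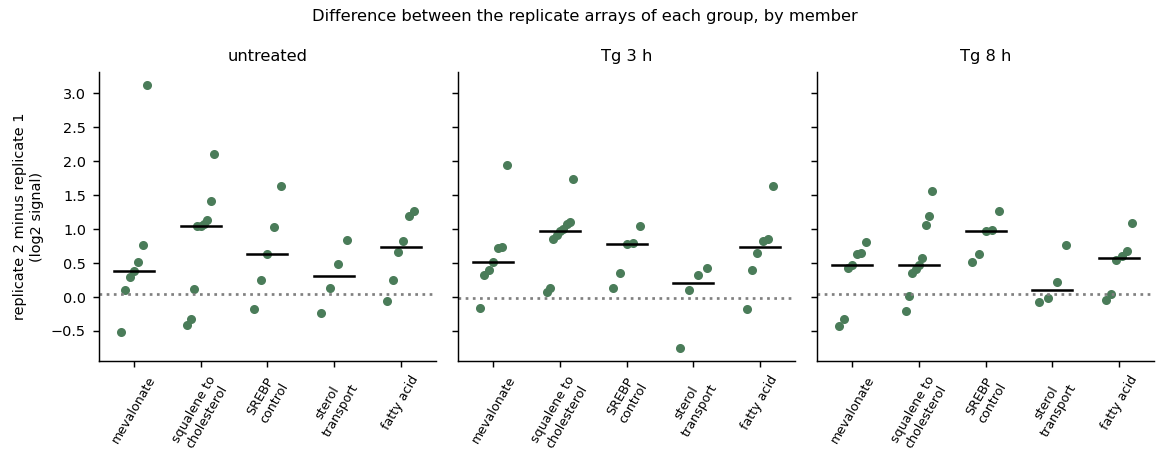
Log2 signal of replicate 2 minus replicate 1 for each member (points) by group of genes, on the untreated, Tg 3 h and Tg 8 h arrays. Bars are medians of the gene group and the dotted line is the median of all genes tested (0.05, -0.01 and 0.04). Most members lie above the dotted line in each group, with MVD at 3.12 and DHCR7 at 2.11 on the untreated arrays.

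Of 32 other genes of sterol and fatty acid metabolism tested, out of 39 listed, 0 were called without the block. In that fit 3 of them, with 1 higher and 2 lower, had an unadjusted p under 0.05 at 8 h. The share of all genes under that rule at 8 h is not given here, so this count cannot be set against it. With the block 0 were called at 3 h, and 1 (3.12%) was called higher and 3 (9.38%) lower at 8 h, where 4.76% of all genes tested were called higher and 3.79% lower. The share called higher did not exceed that of all genes, and the share called lower was above it, on 3 genes. OSBP, a sterol sensor that exchanges cholesterol between the ER and the Golgi, was the one called higher, with signals of 1201.2 and 1116.4 untreated, 1441.1 and 1494.3 at 3 h, and 1825.2 and 1932.8 at 8 h (log2 fold change 0.70, adjusted p 0.0199). MYLIP, an LXR-induced ubiquitin ligase that lowers lipoprotein receptors, was called lower, with signals of 665.0 and 658.2 untreated, 795.9 and 415.6 at 3 h, and 202.6 and 218.1 at 8 h (log2 fold change -1.65, adjusted p 0.00733). The others called lower were SLC25A1, the mitochondrial citrate carrier (log2 fold change -0.94, adjusted p 0.0199), and SCD5, a desaturase related to SCD (-0.81, adjusted p 0.0323). These 2 were among the 12 other fatty acid genes tested, of which 0 were called higher. Of the 6 tested genes of SREBP processing and degradation and the 7 other sterol and isoprenoid enzymes, 0 were called in either limma fit, and 1 higher at 3 h and 1 lower at 8 h, RNF139 and ERLIN2, had an unadjusted p under 0.05 without the block.

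Promoter windows of the called members are shown because these genes were higher together at 8 h with the block. RefSeq windows on GRCh38.p14, from 250 bases before to 50 bases after a start site, were given for 30 of the 34 members, and not for ACAT2, FDFT1, SQLE or FASN. Both strands were searched for a sterol regulatory element (TCACNCCAC), a CCAAT box (CCAAT), a GC box (GGGCGG), an E box (CACGTG) and the ER stress element, which is a CCAAT box, any 9 bases and CCACG. The CCAAT box was present for 7 of the 8 called members with a window, for 14 of the 20 members tested and not called, and for 43.5% of the 10461 genes tested that have a window (34.6% of all 35116 windows). ABCA1 was the called member without one. The CCAAT box is the binding site of NF-Y, which is known to act together with SREBP at many sterol promoters. Of the listed genes with a window, it was present for 13 of 15 sterol synthesis genes and for 4 of 6 fatty acid genes. These counts include CYP51A1 and FADS1, whose expression was not read, and leave out ACAT2, SQLE and FASN, which have no window.

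The strict sterol regulatory element was found for 1 of the 30 members, SREBF2, and in 1.13% of all windows, or for 1.45% of the genes tested with a window. The ER stress element was found for 0 members and in 0.0769% of all windows, or for 0.153% of those genes. The E box was found for 5 members, INSIG1 and ABCA1 among those called, and in 7.26% of all windows, or for 12.8% of those genes. The GC box was found for 29 of the 30 members and in 45.0% of all windows, or for 75.5% of the genes tested. A match only says that the letters are in the window, and no match says nothing about the factor. The windows of 6 called members, those with the highest log2 fold change at 8 h among the members with a window, are given 5′ to 3′ on the strand of the gene, with each CCAAT box on either strand (CCAAT or ATTGG) in capitals. For HMGCS1, the first of its 2 windows is shown. The window of NSDHL holds 5 CCAAT boxes, of which a pair overlaps on opposite strands, that of MSMO1 holds 4, those of STARD4, HMGCS1 and HSD17B7 hold 2 each, and that of ABCA1 holds 0.
STARD4 (chr5:111512486-111512785, minus strand): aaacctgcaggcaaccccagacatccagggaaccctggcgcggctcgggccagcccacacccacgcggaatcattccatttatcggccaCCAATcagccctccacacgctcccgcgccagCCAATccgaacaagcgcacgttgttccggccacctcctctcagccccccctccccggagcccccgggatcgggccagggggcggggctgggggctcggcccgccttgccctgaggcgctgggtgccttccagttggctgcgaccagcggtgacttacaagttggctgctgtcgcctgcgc
MSMO1 (chr4:165327419-165327718, plus strand): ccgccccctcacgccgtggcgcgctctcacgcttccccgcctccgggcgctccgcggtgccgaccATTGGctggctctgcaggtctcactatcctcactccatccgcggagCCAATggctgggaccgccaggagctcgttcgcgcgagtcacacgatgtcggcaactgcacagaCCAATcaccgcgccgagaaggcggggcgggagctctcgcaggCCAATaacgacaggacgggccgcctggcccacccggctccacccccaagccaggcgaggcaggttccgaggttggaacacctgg
ABCA1 (chr9:104928106-104928405, minus strand): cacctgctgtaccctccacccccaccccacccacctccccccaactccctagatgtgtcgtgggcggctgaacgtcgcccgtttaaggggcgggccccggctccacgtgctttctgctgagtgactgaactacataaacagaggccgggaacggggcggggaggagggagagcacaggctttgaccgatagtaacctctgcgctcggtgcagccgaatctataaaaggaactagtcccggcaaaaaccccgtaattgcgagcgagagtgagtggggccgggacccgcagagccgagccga
NSDHL (chrX:152830813-152831112, plus strand): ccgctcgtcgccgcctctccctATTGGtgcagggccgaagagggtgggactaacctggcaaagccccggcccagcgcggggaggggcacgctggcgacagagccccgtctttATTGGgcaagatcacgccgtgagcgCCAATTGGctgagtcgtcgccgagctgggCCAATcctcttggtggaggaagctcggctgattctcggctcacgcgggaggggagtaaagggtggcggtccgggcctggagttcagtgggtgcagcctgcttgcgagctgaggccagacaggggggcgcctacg
HMGCS1 (chr5:43313363-43313662, minus strand): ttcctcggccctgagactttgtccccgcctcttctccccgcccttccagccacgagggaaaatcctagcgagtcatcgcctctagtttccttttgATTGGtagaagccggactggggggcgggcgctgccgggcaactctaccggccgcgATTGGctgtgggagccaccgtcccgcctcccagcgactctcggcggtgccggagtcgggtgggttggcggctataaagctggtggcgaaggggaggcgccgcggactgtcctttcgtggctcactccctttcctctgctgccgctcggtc
HSD17B7 (chr1:162790452-162790751, plus strand): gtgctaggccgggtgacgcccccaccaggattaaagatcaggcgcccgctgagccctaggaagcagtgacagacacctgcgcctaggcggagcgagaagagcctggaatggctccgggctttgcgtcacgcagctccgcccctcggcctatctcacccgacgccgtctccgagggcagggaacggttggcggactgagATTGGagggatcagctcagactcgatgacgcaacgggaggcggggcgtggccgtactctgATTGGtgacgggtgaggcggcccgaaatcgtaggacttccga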

How the data were processed

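Expression was measured on 6 arrays of Daoy cells, 2 untreated, 2 after 3 h of thapsigargin and 2 after 8 h. The authors deposited MAS5 signal intensities for 54675 probe sets on a linear scale, scaled on each array to one trimmed mean (500.1 on all 6 arrays here), and the log2 transformation was repeated. Median signals were 84.8 to 103 on replicate 1 arrays and 69.7 to 75.3 on replicate 2 arrays. The number of arrays, 2 per group, limits the precision. Detection calls were not used here.

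Of the probe sets, 41097 had 1 symbol in the platform annotation given, 1801 several and 11777 none. Through Entrez identifiers 41043 were matched to RefSeq, and 0 symbols changed. limma 3.58.1 (R 4.3.3) was fitted to the 27616 probe sets that reached 100 on 2 or more arrays (lmFit, then eBayes with the trend option). Tests were two-sided, with Benjamini-Hochberg adjustment over all of them. A gene was read from its own probe set with the highest mean log2 signal. Intervals are 95% intervals of the fit. The local pooled error test was rewritten from its description. Tables were made in Python 3.11.15 with pandas 2.3.3. The fits were tested on simulated data.

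Same-numbered arrays deviated together from their group means: their correlations were 0.259 to 0.323 over the probe sets tested, which are not independent of each other, and 0.657 to 0.700 over the 12451 with a mean signal of at least 500. Every pair exceeded 0.1, so the replicate number was taken to pair the arrays, from these values and not from the labels. The hybridization controls had a geometric mean of 7762 to 11670.9 on replicate 1 arrays and 2718.4 to 2840.3 on replicate 2 arrays. ACTB probe sets at the 3' and 5' ends had a ratio of 2.97 to 4.47 on replicate 1 arrays, highest on Tg 3 h replicate 1. On replicate 2 arrays it was 2.75 to 3.25. For GAPDH the same ratio was 1.13 to 1.24 over all 6 arrays. Other pathway genes covered SREBP processing and degradation, sterol and isoprenoid enzymes, LXR and sterol efflux, and fatty acid genes. Signals on all 6 arrays are given for members called with or without the block, and for the highest and lowest log2 fold change at 8 h in each group of genes. The members and lists were chosen with earlier results of these data known. The alternatives were the block, no trend, the local pooled error test, other scalings, filters, a floor, a pseudocount, other choices of probe set, only the 4 arrays compared, and leaving out each array.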

Additional observations from a re-analysis of the deposited data

How the results depend on the processing

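At 3 h the count of members called, 0, was 5 with the replicate block and 1 with the local pooled error test, and 0 to 1 when each array was left out, the 1 being STARD4 without untreated replicate 2. At 8 h the count of 1 was 9 with the replicate block, 0 without the intensity trend, 2 with the local pooled error test, and 0 to 1 when each array was left out, with 0 without either Tg 8 h array. Between 8 h and 3 h the count was 0 under each alternative tried, leaving out each array included (0 to 0).

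Alternatives to the blocked fit were added after seeing the data. The count of 5 at 3 h was 0 without the intensity trend, 2 with the mean of all probe sets, and 1 to 5 when each array was left out: 3 without untreated replicate 1, 2 without Tg 3 h replicate 1 and 1 without Tg 3 h replicate 2. The count of 9 at 8 h was 0 without the trend and 5 to 8 when each array was left out, with 5 without either untreated array and 6 without Tg 8 h replicate 1. HMGCS1, MSMO1 and STARD4 were called at 8 h in each of these blocked fits except that without the trend, and SC5D was also called after centring on the median, with a signal of at least 200 and without Tg 8 h replicate 2. With the mean of all probe sets, 1 of 7 called members, EBP, was lower, although no EBP probe set was called alone. Each lone array is assumed to vary like the other groups.

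The sterol synthesis median of 0.44 at 3 h was 0.42 after centring on the median, 0.29 with a signal of at least 200, with signals under 100 raised to 100 or without x_at and s_at probe sets, 0.35 with a pseudocount of 50, 0.25 with the mean of all probe sets, and -0.09 to 0.79 when each array was left out. At 8 h, 0.42, it was 0.25 with signals under 100 raised to 100 or without x_at and s_at probe sets, and 0.02 to 0.86 when each array was left out. In the setting without x_at and s_at probe sets, a gene with no other tested probe set kept its own. HSD17B7, ACLY, FASN, SCD and FADS2 were among the genes still read from such a probe set. The fatty acid median at 3 h was -0.15 with the mean of all probe sets and -0.37 to 0.35 when each array was left out. At 8 h it was 0.12 after centring, -0.17 with the mean of all probe sets and -0.26 to 0.31 when each array was left out. Leaving out 1 array unbalances the replicate numbers, which differ for these genes. The sterol minus fatty acid difference stayed above 0. At 3 h it was 0.34 with a signal of at least 200, with the floor or without x_at and s_at probe sets, 0.40 with a pseudocount of 50 or the mean of all probe sets, and 0.27 to 0.49 when each array was left out, and at 8 h, 0.39, it was 0.22 with the floor or without x_at and s_at probe sets and 0.18 to 0.61 when each array was left out.

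Of 324 values of the 9 called members under the alternatives, 5 turned direction. IDI1 was -0.65 at 3 h and -1.25 at 8 h without x_at and s_at probe sets, where it was read from 233014_at. It was -0.10 at 8 h with the mean of all probe sets. For SQLE at 3 h, values ran from -0.20 (Tg 3 h replicate 2 left out) to 0.90 (Tg 3 h replicate 1 left out), and leaving out untreated replicate 1 gave -0.19. Leaving out 1 array unbalances the replicate numbers, between which SQLE differed by 1.07 on the log2 scale on the untreated arrays. Why the IDI1 probe sets differ was not tested.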
